A study of Homo sapiens with 9 samples.

Results

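The genes described here are 10 enzymes of glycolysis, HK1, HK2, GPI, PFKP, ALDOA, GAPDH, PGK1, ENO1, PKM and LDHA, taken from a list and matched by symbol to the Ensembl identifiers of the count files. All 10 were found among the 60880 gene identifiers, and all 10 had enough counts to be tested in each comparison, so none was lost to the filter on low counts. GAPDH also served as the reference gene of the study's real-time PCR of Fcγ receptors.

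The study asked how gold nanocarriers change the effect of ramucirumab, a monoclonal antibody against VEGFR2, on gastric cancer cells. The cells were SNU5, an established human gastric carcinoma line, kept in culture for 24 h with AuNR-PEG-Ab (gold nanorods carrying the antibody, NR group), AuSP-PEG-Ab (gold nanospheres carrying the antibody, SP group) or ramucirumab alone (Ab group). All 3 groups received the antibody at 8 μg/mL, 3 poly-A RNA-seq libraries were made per group, and no untreated or particle-only cells were among the 9 libraries. Every difference given here is therefore between 2 treated groups of a single cell line, and both particle groups were set against the same 3 Ab libraries. The labels do not say whether libraries of a group came from separate cultures, whereas the paper speaks of biological replicates, and p-values measure only the spread between these libraries.

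The deposited values were whole read counts per gene, and the totals of libraries 1, 2 and 3 were 25735410, 13863155 and 15943980 counts in NR, 21682836, 22914759 and 20601906 in SP, against 19566064, 26318227 and 21031024 in Ab. Levels are given as counts per 1000000 after TMM scaling (CPM). The 10 enzymes together took 1.02% ± 0.00418 of all counts in NR (SD, n = 3), 1.02% ± 0.00741 in SP and 0.768% ± 0.0179 in Ab. Apart from ALDOA, which had 48 to 103 counts in each library, the enzymes were counted 466 times or more in every library.

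Glycolysis splits glucose into pyruvate in the cytosol. Its first enzymes, from hexokinase to aldolase, spend ATP to make triose phosphates from glucose, and the later ones, from GAPDH to pyruvate kinase, return ATP and NADH. Lactate dehydrogenase then turns pyruvate into lactate and regenerates the NAD+ that GAPDH needs, and many carcinoma cells keep this route active in the presence of oxygen.

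The label of the cells was checked against marker genes. The epithelial keratin genes KRT8, KRT7 and KRT18 were abundant, whereas KRT19 stayed at or under 3 counts in every library, and the 10 epithelial markers summed to 3558, 3591 and 3585 CPM in NR, 4087, 3613 and 3697 in SP, against 3441, 3111 and 3182 in Ab. Within that list KRT7 went the other way, from 2199 CPM in Ab to 1007 in NR and 1152 in SP. CLDN7 stood at 20.3 CPM in Ab, 18.5 in NR and 17.9 in SP, and CLDN4 at 45.9, 48.5 and 48.6. CDH1 and EPCAM were low in Ab, at 0.296 and 1.62 CPM. They were higher in NR, at 5.65 and 5.18, and in SP, at 6.73 and 4.89. Of the 9 epithelial markers that could be tested, 6 rose and 1 fell in each comparison with Ab, where 36.4% of all genes rose. KDR, which encodes VEGFR2, the target of the antibody, was also at or under 3 counts in all 9 libraries. Among the leukocyte markers, PTPRC, CD3E, MS4A1, CD68, LYZ, NKG7 and HBB were at or under 3 counts in all libraries. The summed level of the 11 leukocyte markers was nevertheless 5.57, 6.95 and 6.67 CPM in NR libraries 1 to 3, 8.23, 6.63 and 5.94 in SP, against 2.24, 1.57 and 1.36 in Ab, with CSF1R its most abundant gene in NR (3.77 CPM) and SP (4.1 CPM), while CD14 was lower in NR, at 0.255 CPM against 0.659 in Ab. The 9 fibroblast and endothelial markers that were matched summed to 134, 130 and 126 CPM in NR, 132, 140 and 142 in SP, against 49.7, 46.5 and 23.1 in Ab, the most abundant being LUM in NR (37.2 CPM) and COL1A1 in SP and Ab (39.1 and 23.8 CPM), and 5 of the 8 that could be tested rose in both particle groups, against 36.4% of all genes tested in each. COL1A2 went from 7.52 CPM in Ab to 0.477 in NR and 2.14 in SP without passing the test. The share of mitochondrially encoded counts was also higher in the particle groups, at 4.59%, 4.36% and 4.41% in NR and 4.66%, 4.47% and 4.40% in SP, against 3.71%, 3.41% and 3.54% in Ab. The summed markers and this share moved with the particle groups, as most of the enzymes described next did, and their part in the results was not tested. In libraries of bulk cells, a change in the number of cells of a kind and a change in RNA per cell cannot be told apart.

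Within a library the 10 enzymes spanned a wide range of levels. As counts per kilobase of exon, rescaled to a sum of 1000000 in every library, which allows genes of different length to be compared, GAPDH was highest in NR at 2576 ± 33.5 (SD, n = 3) and in SP at 2657 ± 39, followed by ENO1, LDHA, PGK1 and PKM. In Ab the order began with ENO1 at 2575 ± 54.2, and GAPDH came second at 1494 ± 29.5, followed by LDHA, PKM and PGK1. The libraries of neighbouring genes among these 5 did not overlap in any group. PFKP and GPI overlapped in NR and in SP, and GPI and HK2 overlapped in Ab. HK2 stood below HK1 in NR and SP and above it in Ab, and ALDOA was last in all 3 groups at 3.34, 2.78 and 3.67 in NR, SP and Ab. The place of GAPDH at the top in NR and SP depended on the length used, because with the longest protein-coding transcript in place of all exons ENO1 was first in all 3 groups. With that length HK1 also stood above HK2, and PKM above PGK1, in all 3 groups, and the libraries of LDHA and PKM overlapped in Ab.

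Compared with the antibody alone, most of the 10 enzymes differed in both particle groups, and 7 of them were higher. In NR against Ab, 7 enzymes rose and 2 fell at an adjusted p of at most 0.05 by the quasi-likelihood test of edgeR (Benjamini-Hochberg), against 72.7% of the 15009 genes tested, with 36.4% higher and 36.4% lower. In SP against Ab the counts were again 7 and 2, against 73.0% of 15068 genes, with 36.4% higher and 36.6% lower. The count of 9 thus stands against a background in which most genes differed. The median log2 fold change of the enzymes was 0.49 in both comparisons, beside -0.01 for all genes tested. With a change of at least 2-fold asked in addition, GPI (higher) and HK2 (lower) were called in NR, against 22.7% of all genes, 12.4% higher and 10.3% lower. In SP, GPI alone was called, against 23.2% of all genes, 12.6% higher and 10.6% lower. The libraries of NR and Ab did not overlap for 7 enzymes that were higher and 2 that were lower, against 74.7% of all genes (37.1% and 37.5%), and those of SP and Ab for 7 and 3, against 75.1% (37.4% and 37.8%), the additional one being ALDOA.

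**Figure D1:**
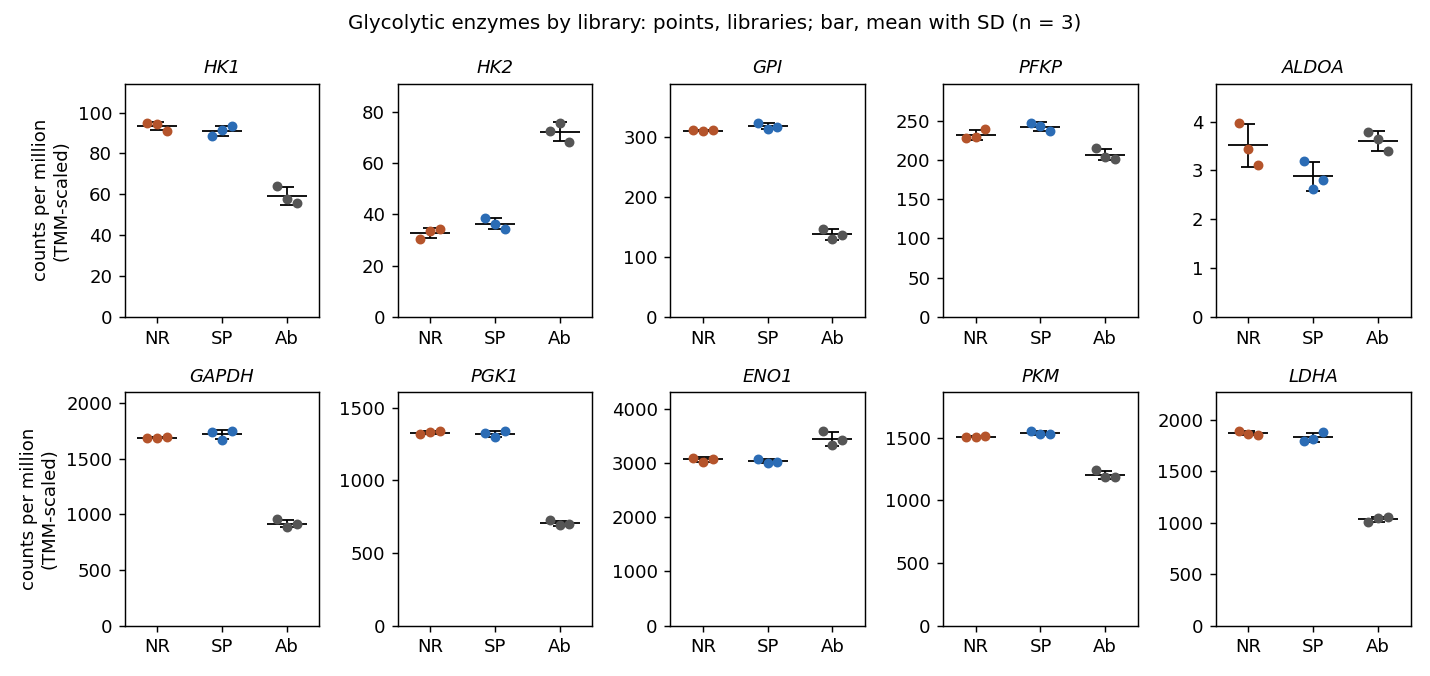
Level of each of the 10 enzymes in every library, in TMM-scaled CPM on axes that start at 0. Points are libraries of the NR, SP and Ab groups and bars give the mean with its SD (n = 3); apart from ALDOA, where NR lies with Ab, the NR and SP points lie near each other, whereas the Ab points lie lower for GPI, GAPDH, PGK1 and LDHA and higher for HK2 and ENO1.

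Hexokinase, which phosphorylates glucose and so keeps it in the cell, is encoded by several genes. HK1 (ENSG00000156515, chr10:71029740-71161640, GRCh37, plus strand), the hexokinase found in most tissues, measured 95.2, 94.2 and 91.25 CPM in NR libraries 1 to 3, 88.4, 91.7 and 93.2 in SP, against 64.1, 57.9 and 55.8 in Ab. All particle libraries were above all Ab libraries, and the log2 fold change was 0.66 ± 0.06 (SE) in NR and 0.63 ± 0.06 in SP, with adjusted p of 2.68e-11 and 3.62e-10 by edgeR.

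HK2 (ENSG00000159399, chr2:75061254-75120486, GRCh37, plus strand), a hexokinase that is often raised in tumours and is bound to mitochondria, moved the other way. Its level was 30.4, 33.4 and 34.4 CPM in NR, 38.6, 36.2 and 34.4 in SP, against 72.5, 75.9 and 68.4 in Ab. The Ab libraries stood about 2-fold above all others, without overlap. HK2 fell by 1.15 on the log2 scale in NR (SE 0.07, adjusted p = 2.86e-15 by edgeR) and by 0.98 in SP (SE 0.06, adjusted p = 1.22e-13 by edgeR). The change in SP, 1.97-fold, lay just short of 2-fold and passed it when SP library 1 or Ab library 3 was left out, so that HK2 counted as called in NR and not in SP although the test of NR against SP gave an adjusted p of 0.284 by edgeR.

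GPI (ENSG00000105220, chr19:34850385-34893318, GRCh37, plus strand) encodes glucose-6-phosphate isomerase, which converts glucose 6-phosphate to fructose 6-phosphate. Its level was 311, 309 and 311 CPM in NR, 324, 314 and 316 in SP, against 147, 129 and 137 in Ab. It showed the largest rise among the 10 enzymes, with a log2 fold change of 1.18 ± 0.05 (SE) in NR and 1.21 ± 0.05 in SP, or 2.26-fold and 2.32-fold, and adjusted p of 1.33e-18 and 3.09e-18 by edgeR.

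PFKP (ENSG00000067057, chr10:3108525-3179910, GRCh37, plus strand), the platelet type of phosphofructokinase, which catalyses the committed step of the pathway, changed little. It measured 228, 228 and 239 CPM in NR, 247, 242 and 237 in SP, against 215, 204 and 201 in Ab. Neither particle group overlapped with Ab, but the log2 fold change was only 0.17 ± 0.04 (SE) in NR and 0.24 ± 0.05 in SP, with adjusted p of 0.00149 and 4.54e-05 by edgeR.

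ALDOA (ENSG00000149925, chr16:30075485-30081778, GRCh37, plus strand), aldolase A, which splits fructose 1,6-bisphosphate, was the only enzyme that did not pass the test in either comparison. It had 103, 48 and 50 counts in NR, 70, 61 and 58 in SP, against 73, 95 and 70 in Ab. Its log2 fold change was -0.02 with a 95% interval of -0.38 to 0.35 in NR and -0.32 with an interval of -0.69 to 0.05 in SP (adjusted p = 0.931 and 0.112 by edgeR). These counts are uncertain, because 54.2% of the exon bases of ALDOA are shared with other annotated genes, 1639 of them with the protein-coding gene ENSG00000285043 on the same strand, which itself had 89 to 170 counts in each library. How reads in shared exons were counted is not stated, so the level of ALDOA given here may stand for a part of its reads.

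GAPDH (ENSG00000111640, chr12:6643678-6647540, GRCh37, plus strand), glyceraldehyde-3-phosphate dehydrogenase, oxidises a triose phosphate and yields NADH. It was measured at 1689, 1685 and 1701 CPM in NR, 1742, 1670 and 1748 in SP, against 955, 890 and 910 in Ab. The lowest particle library was far above the highest Ab library, and the SD within a group was 8.35 CPM in NR, 43.5 in SP and 33 in Ab. GAPDH rose by a log2 fold change of 0.88 ± 0.04 (SE) in NR and 0.91 ± 0.04 in SP, or 1.85-fold and 1.88-fold, with adjusted p of 1.16e-17 and 7.62e-17 by edgeR. Larger changes in either direction were seen in 27.6% of all genes tested in NR and in 26.7% in SP.

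PGK1 (ENSG00000102144, chrX:77166236-77384792, GRCh37, plus strand), phosphoglycerate kinase, makes the first ATP of the pathway. It was at 1315, 1331 and 1336 CPM in NR, 1325, 1296 and 1337 in SP, against 725, 692 and 696 in Ab. Its log2 fold change was 0.92 ± 0.04 (SE) in NR and 0.91 ± 0.04 in SP (adjusted p = 4.34e-18 and 4.35e-17 by edgeR), about as large as that of GAPDH.

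LDHA (ENSG00000134333, chr11:18416107-18429972, GRCh37, plus strand), the lactate dehydrogenase subunit that favours lactate formation, completed this group. It measured 1887, 1864 and 1847 CPM in NR, 1790, 1815 and 1877 in SP, against 1005, 1040 and 1052 in Ab. Its log2 fold change was 0.86 ± 0.04 (SE) in NR and 0.83 ± 0.04 in SP, with adjusted p of 1.41e-17 and 3.26e-16 by edgeR. GAPDH, PGK1 and LDHA thus rose by 1.78-fold to 1.89-fold.

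PKM (ENSG00000067225, chr15:72491370-72524160, GRCh37, minus strand), pyruvate kinase of muscle type and of most tumours, makes the last ATP and forms pyruvate. Its level was 1504, 1510 and 1512 CPM in NR, 1553, 1531 and 1533 in SP, against 1244, 1188 and 1188 in Ab. The rise was modest, with a log2 fold change of 0.33 ± 0.04 (SE) in NR and 0.36 ± 0.04 in SP (adjusted p = 1.45e-08 and 1.03e-08 by edgeR). Gene counts do not separate the PKM1 and PKM2 splice forms.

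ENO1 (ENSG00000074800, chr1:8921059-8939249, GRCh37, minus strand), the common enolase, which makes phosphoenolpyruvate, had the highest count of the 10 in every library and fell slightly. It was at 3099, 3021 and 3079 CPM in NR, 3082, 3008 and 3021 in SP, against 3586, 3329 and 3429 in Ab. Neither particle group overlapped with Ab, and ENO1 fell by 0.17 on the log2 scale in NR and by 0.18 in SP (SE 0.04 in both, adjusted p = 0.000334 and 0.000496 by edgeR).

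**Figure D2:**
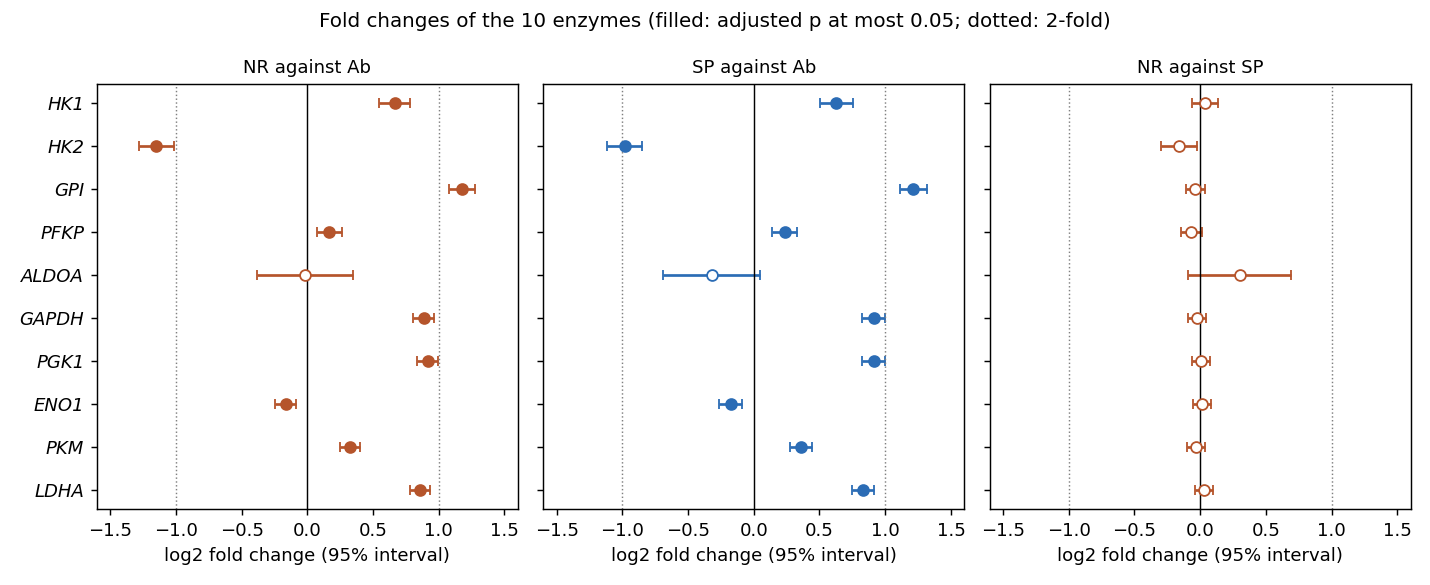
Log2 fold change of the 10 enzymes with its 95% interval in NR against Ab, SP against Ab and NR against SP, on the same horizontal axis. Filled points passed an adjusted p of 0.05 by edgeR and dotted lines mark 2-fold; GPI lies beyond the line in both comparisons with Ab and HK2 in NR alone, and no point is filled in NR against SP.

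The levels of these enzymes in NR and SP lay close together. In NR against SP no enzyme passed an adjusted p of 0.05 by edgeR, against 0.443% of the 14903 genes tested (0.262% higher and 0.181% lower), and none was called at 2-fold, against 0.0201% of genes, all of them higher in NR. DESeq2 called none of the enzymes either. At an unadjusted p under 0.05, 1 enzyme passed, against 12.9% of all genes. That enzyme was HK2, which fell by 0.16 on the log2 scale in NR relative to SP, with a 95% interval of -0.30 to -0.03. Leaving ALDOA aside, whose interval was -0.09 to 0.69, the intervals of the other 8 enzymes lay between -0.14 and 0.13. HK2, GPI and PKM did not overlap between NR and SP (HK2 with adjacent libraries equal to 3 digits), against 17.8% of all genes (8.98% higher and 8.84% lower in NR), and all 3 were lower in NR.

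The enzymes that share a step with the listed 10 were then compared. Of 22 other enzymes of the glycolytic steps, 13 could be tested in each comparison with Ab, of which 7 rose and 3 fell in NR, and 7 rose and 4 fell in SP, shares near the 72.7% and 73.0% of all genes that passed. The median log2 fold change of the tested ones was 0.38 in NR and 0.39 in SP. Of these 13, 5 rose and none fell by at least 2-fold in NR, and 4 rose and 1 fell in SP, where 22.7% and 23.2% of all genes did so in either direction. TPI1, triosephosphate isomerase, was at 586 ± 14.6 CPM (SD, n = 3) in NR, 571 ± 16.6 in SP and 279 ± 14.1 in Ab, a log2 fold change of 1.07 and 1.04. PGAM1, the phosphoglycerate mutase between PGK1 and the enolases, rose by 0.73 and 0.81 on the same scale.

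Isozymes of a step did not all move the same way. At the hexokinase step, HKDC1, a hexokinase-like gene named here after its values were seen, fell by 0.54 in NR and by 0.56 in SP on the log2 scale, as HK2 fell, whereas HK1 rose. Per length, HK1 made up 36.1% ± 1.08 of hexokinase transcripts in NR (SD, n = 3), 35.3% ± 1.6 in SP and 18.0% ± 0.674 in Ab, and HK2 14.7% ± 0.828, 16.4% ± 0.624 and 25.6% ± 1.31. By this length, over all exons, HKDC1 was the largest part of the step in each group, at 49.2% ± 0.572, 48.3% ± 0.985 and 56.4% ± 1.21. The order within the step depended on the length used. With the longest protein-coding transcript HK1 made up 46.2% in NR, 45.4% in SP and 25.2% in Ab, HKDC1 42.3%, 41.7% and 53.0%, and HK2 11.5%, 12.9% and 21.8%, so that HK1 was first in NR and SP and above HK2 in Ab, while the share of HK1 was again higher, and that of HK2 lower, in the particle groups. The log2 ratio of HK2 to HK1 counts within a library, which does not depend on scaling, lay between -1.65 and -1.41 in NR, between -1.44 and -1.20 in SP and between 0.18 and 0.39 in Ab. HK2 was thus counted less often than HK1 in all 6 particle libraries and more often in all 3 Ab libraries. The difference in this ratio relative to Ab was -1.805 for NR and -1.61 for SP, each with a two-sided exact permutation p of 0.1, the smallest that 3 against 3 libraries allow (0.136 after adjustment over the 15 ratio tests made).

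At the phosphofructokinase step, the liver type PFKL and the muscle type PFKM rose more than PFKP. PFKL was at 157 CPM in NR, 167 in SP and 77 in Ab, a log2 fold change of 1.03 and 1.12, and PFKM at 172, 177 and 77 CPM, a log2 fold change of 1.16 and 1.20. The log2 ratio of PFKP to PFKL counts fell by 0.87 in NR and by 0.89 in SP, with no overlap with Ab (two-sided exact permutation p = 0.1 for each). PFKP made up 58.0% of phosphofructokinase transcripts per length in Ab and 41.9% and 42.0% in NR and SP.

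At the aldolase step, the brain type ALDOC rose most of all the tested enzymes of the pathway, from 6.39 ± 0.135 CPM in Ab (SD, n = 3) to 38.6 ± 1.15 in NR and 38.9 ± 1.58 in SP, a log2 fold change of 2.59 and 2.61. The counts were 970, 555 and 617 in NR, 888, 895 and 777 in SP, against 123, 170 and 129 in Ab, above those of ALDOA in every library, with the limit on ALDOA given above. The neuronal enolase ENO2, named after its values were seen, fell by 0.46 and by 0.51, and the log2 ratio of ENO1 to ENO2 counts was higher than in Ab by 0.30 in NR and 0.34 in SP, with no overlap (two-sided exact permutation p = 0.1 for each). LDHB, the other main lactate dehydrogenase subunit, had only 9 to 26 counts in a library, so LDHA made up at least 99.8% of lactate dehydrogenase transcripts per length in each group. The log2 ratio of LDHA to LDHB counts was higher than in Ab by 1.08 in NR, without overlap, and by 0.44 in SP, with overlap (two-sided exact permutation p = 0.1 and 0.2). In NR against SP this ratio was higher by 0.64 and that of ALDOA to ALDOC by 0.30, both without overlap (two-sided exact permutation p = 0.1 for each). After adjustment over the 15 ratio tests the exact permutation p was 0.136 for both, and they rest on the low counts of LDHB and ALDOA. The rare paralogue PGAM4, at 1.59 CPM in NR and 0.641 in Ab, rose by 1.32 in NR and 0.98 in SP on the log2 scale, and LDHAL6B, at 0.663 CPM in NR and 1.39 in Ab, fell by 0.95 and by 1.56. Their sequences resemble those of PGAM1 and LDHA, so reads may have been shared.

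**Figure D3:**
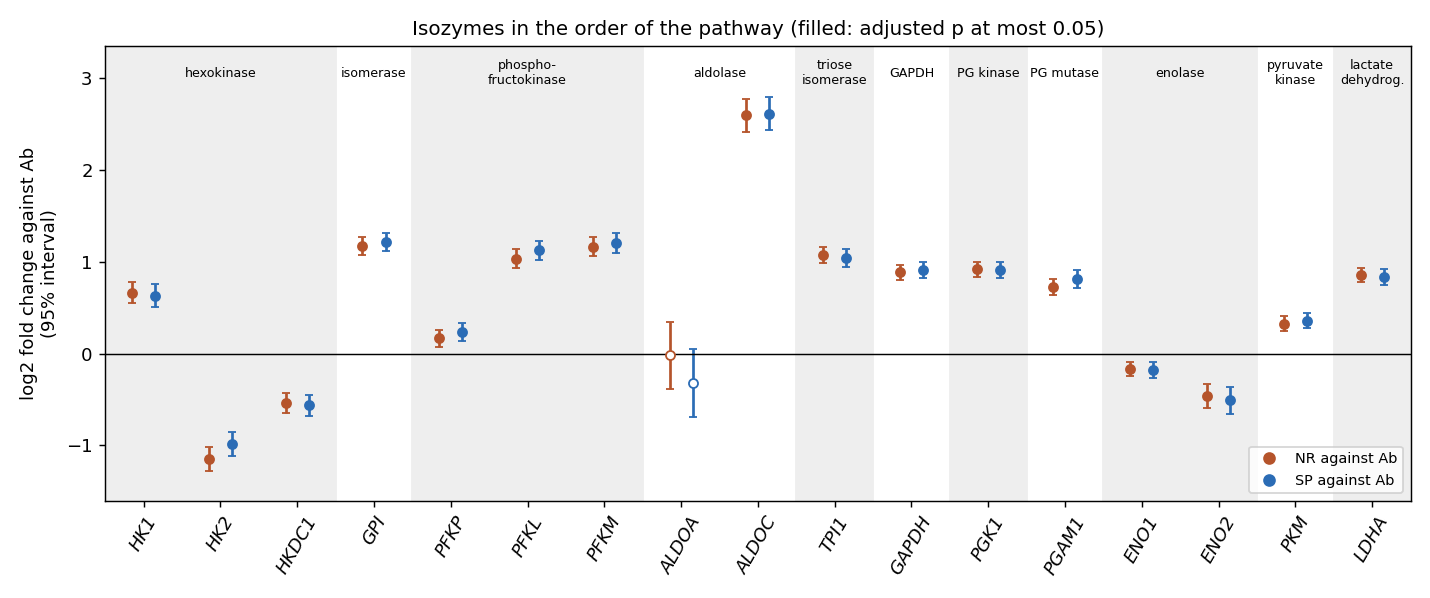
Log2 fold change against Ab with its 95% interval for enzymes in the order of the pathway, shaded by step (PG, phosphoglycerate). NR and SP points lie side by side for each gene and filled points passed an adjusted p of 0.05 by edgeR; HK2 and HKDC1 lie below 0 beside HK1 above it, and ALDOC lies highest at 2.59 and 2.61.

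Genes of transport moved in both directions. Of 14 genes of glucose and lactate transport, 5 rose and 3 fell of 11 tested in NR, and 5 rose and 2 fell of 10 tested in SP, shares near the 72.7% and 73.0% of all genes. SLC2A1, the basal glucose transporter GLUT1, was at 219 CPM in NR, 223 in SP and 271 in Ab, and fell by 0.31 and by 0.28 on the log2 scale, whereas SLC2A3 (GLUT3) rose by 0.60 and 0.55; both were named after their values were seen. The lactate exporters SLC16A1 and SLC16A3 differed by -0.06 to 0.02 on the log2 scale and did not pass the test, and their chaperone BSG rose by 0.57 in both comparisons. SLC2A4 (GLUT4) had 20, 13 and 16 counts in NR, 19, 10 and 18 in SP, against 1, 0 and 0 in Ab, too few there for a fold change, and passed the test in NR (adjusted p = 2.55e-07 by edgeR). In SP against Ab SLC2A4 did not pass the filter on low counts and was not tested. SLC16A8, with a mean under 1 CPM in all groups, was at -1.30 in NR and -0.88 in SP, and passed the test in NR alone. That call rested on single libraries, since the value in NR was -0.74 without Ab library 2 (adjusted p = 0.194 by edgeR) and -0.99 without NR library 1 (adjusted p = 0.0942 by edgeR).

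Among 8 regulators of glycolytic flux, 5 fell and none rose in each comparison, of 6 tested in NR and 7 in SP, where 36.4% and 36.6% of all genes fell. PFKFB4, an isoform of the enzyme that makes and degrades the phosphofructokinase activator fructose 2,6-bisphosphate, fell most, from 165, 146 and 147 CPM in Ab to 16.2, 15.5 and 15.02 in NR and 11.2, 11.6 and 12.8 in SP, a log2 fold change of -3.28 ± 0.07 (SE) and -3.67 ± 0.07. PFKFB2, of the same family, fell by 0.83 and by 0.60. TXNIP and ARRDC4, arrestin-like proteins that limit glucose uptake and whose genes respond to glucose, fell by 1.91 and 1.86 in NR and by 1.99 and 1.70 in SP. PFKFB2 was the only gene of the list to pass the test in NR against SP, where it fell by 0.23 (adjusted p = 0.0256 by edgeR), a call kept in 2 of 6 fits that left out 1 library and lost with GAPDH scaling (adjusted p = 0.085 by edgeR).

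The routes that leave glycolysis were counted in the same way. Of 14 genes of pyruvate dehydrogenase and pyruvate import, 11 rose and 1 fell in each comparison, where 36.4% of all genes rose in each and 36.4% and 36.6% fell. Of the complex subunits, PDHX stood at 70.5, 70.1 and 69 CPM in NR, SP and Ab and did not pass the test, while PDHA1, PDHB, DLAT and DLD rose by 0.69, 0.98, 0.87 and 0.61 in NR and by 0.69, 1.02, 0.84 and 0.64 in SP, the pyruvate carrier MPC2 by 1.01 and 0.84, and the inhibitory kinases PDK2, PDK3 and PDK4 by 1.32, 3.19 and 1.13 in NR and by 1.38, 3.21 and 1.32 in SP, all on the log2 scale. The kinase PDK1 was at 27.1, 27.2 and 28.2 CPM in NR, SP and Ab and did not pass the test, and the phosphatase PDP1 fell by 0.96 in NR and by 0.80 in SP. PDHX, PDK1 and PDP1 were named after their values were seen. Of 7 pentose phosphate genes, 4 rose and 2 fell of 6 tested in each comparison, against 72.7% and 73.0% of all genes past the test in either direction. TKT, TALDO1 and PGD rose by 1.09, 0.97 and 0.66 in NR. Of the genes of gluconeogenesis, 5 could be tested in NR and 4 in SP. All passed the test, against 72.7% and 73.0% of all genes. PC, G6PC3 and SLC37A4 were higher in both, by 1.79, 1.05 and 1.28 in NR, and PCK2 was lower by 1.91 in NR and by 1.86 in SP. FBP1 rose in NR, from 0.145 CPM in Ab to 0.72, on 21, 11 and 9 counts against 0, 5 and 5, and was too low to be tested in SP.

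GAPDH was next considered as a PCR reference, for which a level that stays the same across the groups is wanted. The primers listed for it were the following, written 5′ to 3′ in lower case with no part marked.
GAPDH-F: gaatgggcagccgttag
GAPDH-R: tggaagatggtgatgggat
They are shown because they define which GAPDH transcripts the PCR can read. GAPDH-F matched the genome exactly once, at chr12:6644486-6644502 (GRCh37, plus strand), where it lies in the non-coding part of exon 1 of 1 of the 11 annotated GAPDH transcripts and in an intron of 8 others, the main transcript among them. GAPDH-R, at chr12:6645935-6645953 on the minus strand, lies in an exon of 10 transcripts and had 12 further exact matches in the genome outside GAPDH. On the spliced transcript GAPDH-203 the pair spans 354 bases, and on the genome 1468 bases. The gene counts sum over all transcripts, so the rise of 1.85-fold and 1.88-fold does not tell how the transcript read by these primers changed.

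Few reads were assigned to pseudogenes of GAPDH. How reads that match both GAPDH and a pseudogene were counted is not stated, so reads lost from GAPDH were not measured. Of 65 genes named as GAPDH pseudogenes, 39 had counts, and their sum was 1.68% to 2.32% of the GAPDH count in a library. GAPDHP1 had the most, 236 to 630 counts. For PGK1, PKM and LDHA the corresponding sums were at most 0.485%, 0.155% and 1.06%. For ALDOA, with its low count, the sum was 5.26% to 29.2%, of which ALDOAP2 had 5 to 14 counts in a library.

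Against a list of 22 genes in common use as PCR references, GAPDH moved more than most. In NR against Ab, 18 of the 22 rose and 2 fell, and in SP 19 rose and 2 fell, where 36.4% of all genes rose in each comparison. POLR2A, named after its values were seen, is among those that rose in NR. It passed there in 3 of the 6 fits that left out 1 library, with adjusted p up to 0.0689 by edgeR. The change of GAPDH was the fifth largest of the 22 in NR and the fourth largest in SP, behind TFRC, SDHA and TUBA1B in both and behind PGK1 in NR. ACTB measured 4265, 4166 and 4244 CPM in NR, 4864, 4188 and 4393 in SP, against 4174, 3926 and 3970 in Ab, with a log2 fold change of 0.07 in NR (adjusted p = 0.0772 by edgeR) and 0.16 in SP (adjusted p = 0.00397 by edgeR). Of the other references with more counts than GAPDH in NR, EEF1A1 rose by 0.22 and 0.13, B2M by 0.62 and 0.48, PPIA by 0.37 and 0.25, RPLP0 by 0.32 and 0.25, and HSP90AB1 by 0.09 and 0.16. RPL32 was at 0.21 and 0.05 and passed the test in NR alone, and RPL13A fell by 0.22 and by 0.35. The references that were called at 2-fold in at least 1 comparison were TUBA1B, which rose by 0.92 and 1.002, SDHA by 1.11 and 1.12, and TFRC by 2.14 and 2.11. PPIA, RPLP0, HSP90AB1, RPL32, RPL13A and TBP were named after their values were seen.

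The log2 ratio of GAPDH to the other 21 references lay above Ab in all 3 particle libraries, without overlap, for 17 of them in NR and for 17 in SP, with a median change of 0.52 in NR and 0.53 in SP, and a range from -1.26 for TFRC to 1.67 for TBP in NR. Of all genes tested, 85.1% in NR and 85.7% in SP had a lower log2 fold change than GAPDH. A rise of GAPDH relative to another gene was thus not particular to the references. GAPDH relative to ACTB rose by 0.81 in NR and 0.75 in SP. Within groups, by contrast, GAPDH varied little, with an SD of 0.04 on the log2 scale. Of the 14435 genes compared, 4.22% had a smaller SD. These genes were not matched for level, so this share does not separate steadiness from a high count. It was smaller still for PKM (0.43%), PGK1 (0.85%), LDHA (1.65%) and ENO1 (3.26%). Among the references, GAPDH had rank 6 from the smallest within-group SD, and PGK1 had the smallest, at 0.026.

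The PCR targets themselves were too low to be tested. FCGR1A, which encodes CD64, had 1, 2 and 2 counts in NR, 1, 4 and 3 in SP, against 11, 2 and 7 in Ab. The paper reports CD64 as up-regulated in both particle groups relative to antibody alone, by PCR and by western blot. Counts this low cannot be set against that result. FCGR3A, which encodes CD16, had no count in 8 libraries and 3 in Ab library 3. Where no read was counted, a level of up to 3 counts remains possible, or 0.114 to 0.216 CPM depending on the library, by counting error only.

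When the libraries were scaled to equal GAPDH counts in place of TMM, the median of all genes moved from -0.01 to -0.89 in NR and to -0.92 in SP, and the enzymes moved with it, since this scaling lowers every gene by the change of GAPDH and turns each gene that rose by less. HK1 then had a log2 fold change of -0.22 in NR and -0.28 in SP, PFKP of -0.72 and -0.68, and PKM of -0.56 and -0.55, which turned their direction. LDHA came to -0.03 and -0.08 and PGK1 to 0.03 and -0.0002, close to the ratio to GAPDH that they had in Ab, and GPI rose by 0.29 and 0.30, no longer 2-fold. HK2 fell by 2.03 and by 1.90 and ENO1 by 1.05 and by 1.09. Relative to GAPDH, ENO1 was counted 1.91, 1.90 and 1.91 log2 units above it in Ab and between 0.79 and 0.88 above it in the particle libraries. The rises given for HK1, PFKP, PKM, LDHA and PGK1 therefore hold for TMM and for the scalings by relative log expression, upper quartile and library total. With GAPDH scaling HK1, PFKP and PKM passed the test as lower, and LDHA and PGK1 did not pass. ALDOA, which did not pass with TMM, then passed as lower, at -0.90 in NR and -1.23 in SP (adjusted p = 0.000153 and 5.79e-06 by edgeR).

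**Figure D4:**
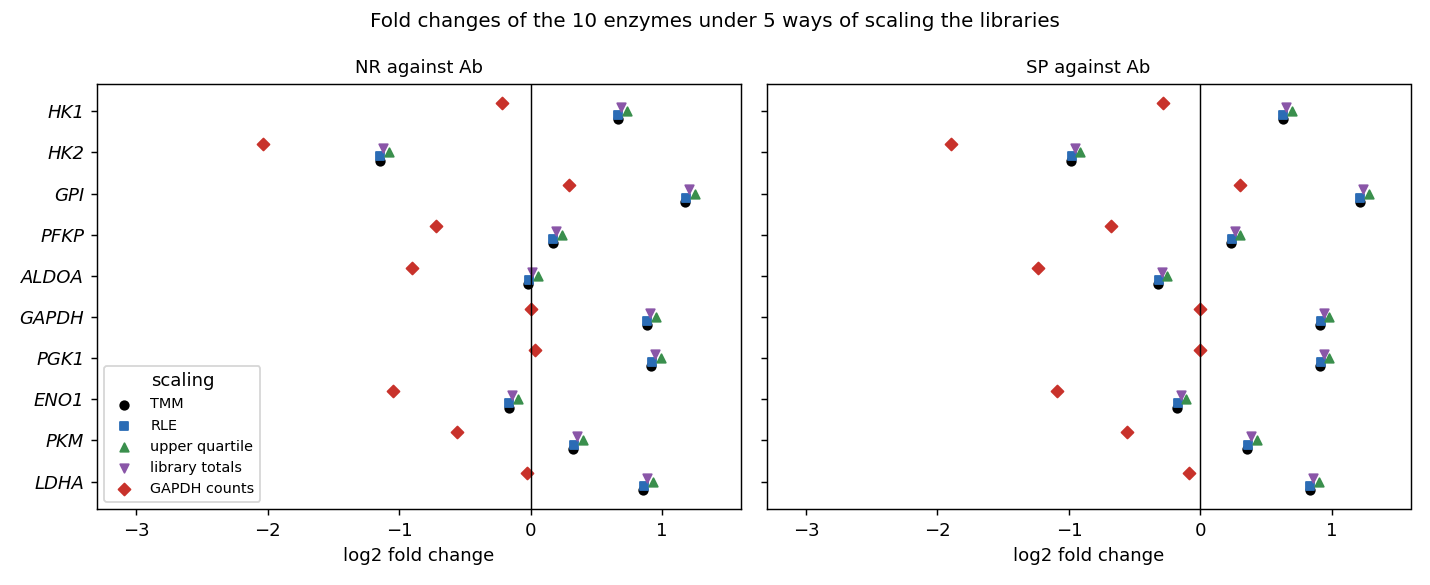
Log2 fold change of the 10 enzymes against Ab under 5 ways of scaling the libraries, in NR (left) and SP (right). The markers for TMM, RLE, upper quartile and library totals lie together for each enzyme, and those for GAPDH counts, where GAPDH is 0 by construction, lie further left by 0.88 in NR and 0.91 in SP.

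The genes whose pattern over the 9 libraries was most like that of GAPDH were GSTP1, ATP5F1B, ALPP, C11orf86 and GPI, with Pearson's r above 0.999 for each, on log2(CPM + 1) with CPM from library totals. The libraries fall into particle libraries and Ab libraries, so such values mainly restate that difference, and 7.92% of the 10762 genes compared had r above 0.99. Among the enzymes, PGK1, PKM and LDHA were also above 0.99, and HK2 and ENO1 were at -0.98 and -0.91.

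The stretch of 250 bases before the RefSeq transcription start (GRCh38.p14) is shown for GAPDH, PGK1 and LDHA, which rose together, and for HK2, which fell. Capitals mark the letters ACGTG, a form of the core of the hypoxia response element, on either strand (CACGT on the other), with overlapping matches merged. Other forms were neither marked nor counted. For genes with several listed starts the first listed is shown. LDHA has another start with no such letters before it, and both starts of HK2 have them.
GAPDH: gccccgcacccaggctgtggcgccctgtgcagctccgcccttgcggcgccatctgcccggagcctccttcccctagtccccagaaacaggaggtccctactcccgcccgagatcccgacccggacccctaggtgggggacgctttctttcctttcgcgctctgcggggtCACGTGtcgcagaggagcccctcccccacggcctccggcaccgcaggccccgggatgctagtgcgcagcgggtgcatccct
PGK1: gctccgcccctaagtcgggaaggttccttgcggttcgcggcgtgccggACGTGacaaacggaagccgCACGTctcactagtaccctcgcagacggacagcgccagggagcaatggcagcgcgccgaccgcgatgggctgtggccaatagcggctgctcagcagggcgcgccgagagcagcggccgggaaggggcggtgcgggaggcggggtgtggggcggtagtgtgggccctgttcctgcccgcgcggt
LDHA: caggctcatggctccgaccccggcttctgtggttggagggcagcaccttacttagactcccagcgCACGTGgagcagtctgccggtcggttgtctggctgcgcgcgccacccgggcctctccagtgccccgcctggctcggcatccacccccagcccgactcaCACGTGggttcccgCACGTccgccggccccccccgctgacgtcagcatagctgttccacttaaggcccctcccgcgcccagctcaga
HK2: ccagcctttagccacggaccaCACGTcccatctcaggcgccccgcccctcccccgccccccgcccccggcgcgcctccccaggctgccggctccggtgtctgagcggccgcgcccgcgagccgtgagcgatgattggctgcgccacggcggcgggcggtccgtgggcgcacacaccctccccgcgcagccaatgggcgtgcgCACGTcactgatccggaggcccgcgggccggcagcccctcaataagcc
These stretches lie at chr12:6535014-6535263, chrX:78103998-78104247, chr11:18394313-18394562 and chr2:74833877-74834126, all on the plus strand. They hold 1, 2, 3 and 2 marked stretches. All 10 enzymes were matched in the RefSeq table, with 23 starts in all, of which 10 had the letters in this window, against 18.5% of 35116 starts of all genes. ENO1, HK1 and PKM had none before any of their listed starts. The letters are a description of the sequence and occurred both before genes that rose and before HK2.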

How the data were processed

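RNA of 9 SNU5 libraries (3 NR, 3 SP, 3 Ab) was sequenced after poly-A selection. The values deposited by the authors were whole read counts per Ensembl gene, made with Hisat2 2.1.0; the methods and the reporting summary name different counting tools. The paper gives hg19 as the build, whereas the submitters' processing notes list mm9, although the identifiers are human. The annotation release and the use of strand are not given in the sources used here. Symbols and positions came from GENCODE 44 on GRCh37, which named 59858 of the 60880 identifiers, and the others held at most 0.115% of the counts of a library.

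Each pair of groups was tested on its own 6 libraries with edgeR 4.0.16 (R 4.3.3, limma 3.58.1): TMM scaling, genes with at least 10 counts in enough libraries and 15 in all, the robust quasi-likelihood test and Benjamini-Hochberg adjustment over all genes tested. A gene was called where the adjusted p was 0.05 or lower and the fold change reached 2. Counts within groups differed by more than sampling noise, so no library was taken as a duplicate. Ratios of isozymes were compared with exact permutation tests (scipy 1.17.1, Python 3.11.15). The alternatives were DESeq2 1.42.0, other scalings, filters, fold minimums and gene lengths, all libraries in one fit, the replicate block and leaving out each library. The fitting step was tested on simulated data.

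The members and the lists of genes were chosen with earlier results of these data known. All 10 enzymes are named. From other lists of the pathway, its neighbours and the PCR references, the genes called against Ab in either particle group and the 3 with the highest mean count are named, and further genes are marked as named after their values were seen. For likeness to GAPDH, the 5 genes with the highest correlation among those with a mean of at least 100 counts are named, and pseudogenes were found by symbol. The promoter sequences are from RefSeq (GRCh38.p14) and the primer sequences from the study's list. G6PC and PECAM1 were not matched. A few genes of the pathway and reference lists are not reported here and are in no list count.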

Additional observations from a re-analysis of the deposited data

Results flagged for a closer look

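Among the genes listed beside the enzymes, 2 differed between the carriers at an adjusted p of at most 0.05, where 66 of all 14903 genes tested (0.443%) did. PFKFB2 was lower in NR than in SP, by -0.23 ± 0.05 on the log2 scale (SE, adjusted p = 0.0256 by edgeR), at 88.4, 87.0 and 88.2 CPM in NR libraries 1 to 3 and 106, 104 and 98.2 in SP. Leaving out 1 library at a time kept the adjusted p at or under 0.05 in 2 of 6 fits, with a range of 0.0104 to 0.118. POLR2A, the large subunit of RNA polymerase II, was lower in NR by -0.25 ± 0.05 on the log2 scale (adjusted p = 0.01499 by edgeR), at 270, 297 and 297 CPM in NR and 366, 340 and 322 in SP, and passed in 4 of 6 such fits, with adjusted p of 0.0027 to 0.088. Both comparisons with Ab used the same Ab libraries, where PFKFB2 stood at -0.83 in NR and -0.60 in SP and POLR2A at 0.14 and 0.40. None of the 10 enzymes was in this position.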

How the results depend on the processing

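The 9 enzymes that passed the test against Ab in NR and in SP passed it in the same direction in all 6 fits that left out 1 library. They also did so in 8 other refits, which include neither GAPDH scaling nor glmTreat, a test against 2-fold. With GAPDH scaling HK1, PFKP and PKM reversed and PGK1 and LDHA did not pass. In NR against Ab the number of genes called was 3409, and 7228 with GAPDH scaling, 2061 with glmTreat, 6348 at 1.5-fold and 10916 with no fold minimum. In SP against Ab it was 3502, and 7512, 2131, 6385 and 11002. In NR against SP it was 3, and 0 with DESeq2 and with glmTreat, 27 with no filter beyond 1 count, 5 at 1.5-fold, 66 with no fold minimum and between 0 and 28 when 1 library was left out, 28 without NR library 1, 0 without NR library 2, 1 without SP library 1 and 5 without SP library 3. Of the 10 enzymes, 2 were called in NR and 1 in SP, which became 6 and 6 at 1.5-fold and 9 and 9 with no fold minimum, 3 in SP with GAPDH scaling (HK2, ENO1 and ALDOA, with HK2 and ENO1 in NR, and GPI in neither), and 1 to 2 in SP when 1 library was left out (2 without SP library 1 or Ab library 3). Among genes past the adjusted p, 49.99% were higher in NR and 49.92% in SP, against 10.7% and 10.3% with GAPDH scaling, and among called genes 54.6% and 54.2%, against 8.90% and 8.44%. With the longest protein-coding transcript as length, 4 enzymes in NR, 6 in SP and 8 in Ab kept their rank of level out of 10.

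GAPDH scaling lowers every gene by about the change of GAPDH, so a gene that rose by less turns negative by construction. The following log2 fold changes did so in NR: HK1 -0.22, PFKP -0.72, PKM -0.56, LDHA -0.0289, PGAM1 -0.16, BSG -0.31, SLC16A1 -0.87, PDHA1 -0.20, DLAT -0.0172, DLD -0.28, PGD -0.23, EEF1A1 -0.67, ACTB -0.81, B2M -0.26, POLR2A -0.74 and SLC2A3 -0.29. In SP they were HK1 -0.28, PFKP -0.68, PGK1 -0.000156, PKM -0.55, LDHA -0.0828, PGAM1 -0.0999, BSG -0.35, MPC2 -0.0699, PDHA1 -0.22, DLAT -0.0785, DLD -0.27, PGD -0.29, EEF1A1 -0.78, ACTB -0.75, B2M -0.44, POLR2A -0.52 and SLC2A3 -0.36. PDHX, PPIA, RPLP0, HSP90AB1 and RPL32 did so too, at -0.86, -0.52, -0.57, -0.79 and -0.67 in NR and -0.89, -0.67, -0.67, -0.75 and -0.87 in SP. Values near 0 also changed sign elsewhere. ALDOA in NR became 0.0539 with upper-quartile scaling and 0.00762 with library totals, and ranged over -0.15 to 0.0568 when 1 library was left out. SLC16A1 in NR became -0.00393 with at least 10 counts in every library and ranged over -0.0167 to 0.0339, and in SP it became 0.0605 with upper-quartile scaling and 0.0169 with library totals and ranged over -0.0454 to 0.00563. SLC16A3 became 0.012 in NR with upper-quartile scaling, and in SP 0.0578 with it and 0.0146 with library totals, with a range of -0.0498 to 0.0486. With upper-quartile scaling PDK1 became 0.00895 in NR and 0.0197 in SP. PDHX ranged over -0.0485 to 0.0647 in NR and -0.0466 to 0.0639 in SP when 1 library was left out. In NR against SP, leaving out 1 library gave -0.00441 to 0.0166 for PGK1 and -0.0943 to 0.0594 for the difference in the log2 ratio of ENO1 to ENO2. The causes of these changes were not tested, other than that GAPDH scaling sets GAPDH to no change.

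Libraries share replicate numbers across groups, but those with the same number did not deviate together, with correlations of -0.11 to 0.04, so the numbers were not taken as pairs. Each library of SP and Ab correlated best with its own number, at 0.03 to 0.04. With the replicate block, 3414, 3493 and 4 genes were called in the 3 comparisons, and 10631, 10970 and 51 passed the adjusted p, with 2, 1 and 0 enzymes called. Depth limits the values of ALDOA, LDHB, SLC2A4, FCGR1A and FCGR3A. The design has no cells with particles alone, so the effect of the particles alone cannot be told apart from that of the carried antibody.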
